A study of Mus musculus with 6 samples.

Results

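Mouse bone marrow cells that received a lentivirus with the second of a pair of short hairpin RNAs against Rad21 (Rad21 shRNA2) were compared with cells that received the empty vector, across 12393 genes. The 4 arrays were chosen by their sample titles, 2 for each group, out of 6 in the series. The remaining 2 arrays, titled Rad21 shRNA1, shared the fit and served as a comparison. The cells of all groups came from C57/BL6 mice aged 6 to 8 weeks. Their marrow had been depleted of lineage-positive cells and then spent 24 h in liquid culture with virus. Infected cells, the empty-vector cells included, were kept overnight in puromycin at 1 µg/mL, sorted for live cells and plated in methylcellulose at 10000 cells per mL. The cytokines in the medium are not named in the labels. RNA of the whole culture was taken on day 7, when the primary plating ended. Whether the replicates were separate cultures or animals is not given in the labels. The p-values then measure no more than the spread between arrays, which may be technical. The control is an empty vector, and a hairpin without a target was not analysed here.

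Rad21 is the kleisin subunit that closes the cohesin ring around the SMC1 and SMC3 proteins. Cohesin holds sister chromatids together until mitosis and, with CTCF, forms the chromatin loops that bring enhancers and promoters together. In the marrow, cohesin genes are known as targets of mutation in myeloid leukaemia. In methylcellulose, single progenitors grow into colonies whose cells mature along the granulocyte, macrophage, mast cell, erythroid or megakaryocyte path, depending on the cytokines supplied. Expression was measured in bulk, so fewer cells of a type and less RNA per cell cannot be told apart.

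The first empty-vector array stood apart from the other 5. Its Gapdh control probe sets read 2.42 higher on the log2 scale at the 3′ end than at the 5′ end, against -0.08 to 0.02 on the other arrays, and its Actb control sets read 2.55 higher, against 0.22 to 0.33. Its poly-A control transcripts averaged 10.58 log2 units, where the other 5 gave 7.19 to 8.72. Root mean square distances from the group mean were 0.32 log2 units for empty vector and 0.14 for shRNA2. Results are therefore also given against each empty-vector array alone. The labelled origin was checked on markers: Ptprc, the CD45 antigen of blood cells, read 11.66 and 11.97 log2 units with empty vector and at most 12.03 with shRNA2. Genes of stromal and endothelial cells averaged 4.88 to 5.24 over these 4 arrays.

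Rad21 itself was lower on both shRNA2 arrays but did not pass the threshold. Its brightest probe set read 11.14 and 10.49 log2 units with empty vector and 9.50 and 9.11 with shRNA2. The groups did not overlap. The difference was -1.51 ± 0.30 (SE, n = 2 and 2; limma, adjusted p = 0.0644), which left 35.04% of the control intensity. With shRNA1 the same probe set read 9.63 and 9.14, so Rad21 intensity with the 2 hairpins overlapped. A second Rad21 probe set stood at 27.7% of control. The remaining, dimmer set stood at 71.0%, with 1 shRNA2 array, at 6.68, above the lower control array, at 6.64. Across the alternatives tried, the Rad21 difference was -1.84 to -1.19 with adjusted p from 0.00913 to 0.364, and it passed the threshold in 2 of them, when empty-vector replicate 2 was left out and when the replicate number was a block.

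Across the transcriptome, more genes fell than rose with shRNA2. Of 12393 genes, 351 (2.83%) passed an adjusted p of 0.05, of which 109 (0.88% of genes) rose and 242 (1.95%) fell. Changes were large: 328 of the 351 exceeded 2-fold, and 17 rises and 33 falls exceeded 8-fold. The median difference was 1.54 among the genes that rose and -1.80 among those that fell, against -0.01 over all genes, and the smallest size among them was 0.83. In every one of the 351 both shRNA2 arrays lay beyond both empty-vector arrays, an arrangement found above the controls in 21.6% and below them in 22.6% of all genes. For 145 of the genes the array carried further probe sets, 255 in all, of which 233 had the same sign and 124 the same sign with over 2-fold. The number of calls rested on the arrays used. It was 1102 without empty-vector replicate 1 and 2941 without replicate 2, where 1 control array is assumed to vary like the other groups. It was 120 without either shRNA1 array, or when the fit held only the shRNA2 and empty-vector arrays. The calls against a single control array were split as 431 higher and 671 lower without empty-vector replicate 1, and 1553 and 1388 without replicate 2. The total fell to 2 (Elane and Plet1) without shRNA2 replicate 1 and to 0 without shRNA2 replicate 2, where limma gave 1235 genes at an unadjusted p under 0.05. Of the 351 genes, 350 remained without empty-vector replicate 1 and 116 in the fit of 4 arrays.

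**Figure D1:**
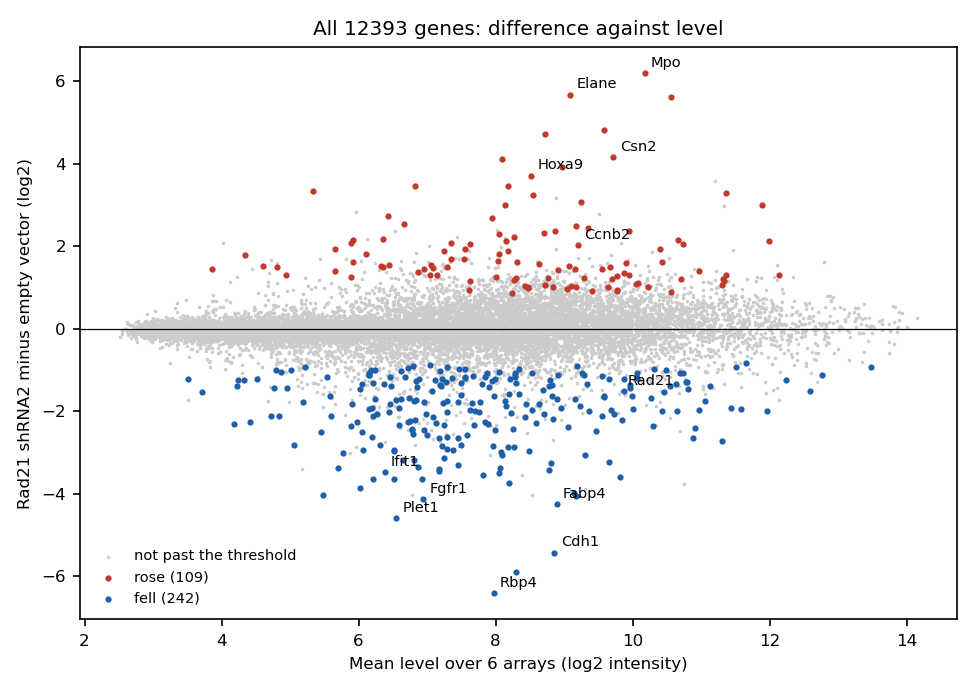
Difference between Rad21 shRNA2 and empty vector (log2, vertical) against the mean log2 level over 6 arrays (horizontal), 1 point for each of 12393 genes, with the 109 genes that rose and the 242 that fell in colour. Mpo, Elane and Prtn3 lie highest and Rbp4, Mmp13 and Cdh1 lowest.

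The largest rises belonged to the enzymes of the primary (azurophil) granules, which granulocyte and monocyte precursors make at the promyelocyte stage. Mpo, the myeloperoxidase that makes hypochlorous acid, read 7.13 and 6.11 log2 units with empty vector and 12.86 and 12.77 with shRNA2. Elane, neutrophil elastase, went from 5.76 and 5.78 to 11.20 and 11.68. Prtn3, proteinase 3, went from 7.49 and 7.07 to 12.89 and 12.91. In all of these genes the gap between groups was several times the gap within them. The differences were 6.19 ± 0.56 for Mpo (adjusted p = 0.0112), 5.67 ± 0.25 for Elane (adjusted p = 0.00318) and 5.62 ± 0.39 for Prtn3 (adjusted p = 0.00787) (SE, n = 2 and 2). The values carry no detection calls, so whether the dimmer group of such a gene lay above background is not known, and no folds are given for these sizes. Elane and Prtn3 are neighbouring genes on chromosome 10. Ctsg, which encodes the serine protease cathepsin G, rose by 3.01 ± 0.28 from control levels of 10.09 and 10.32. Ms4a3, a membrane protein of granulocyte and monocyte progenitors, rose by 4.81 ± 0.70, and its control arrays lay far apart, at 7.81 and 5.83. Nkg7, a granule membrane protein, rose by 2.48 ± 0.21.

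Of 13 measured genes in the primary granule and granulocyte progenitor list, those 6 rose and 0 fell, with a median difference of 2.48. The median was 2.47 against empty-vector replicate 2 alone and 2.58 against replicate 1 alone. Hp, the haemoglobin-binding haptoglobin, differed by 3.58 ± 0.65 but missed the threshold (adjusted p = 0.0538), and its control arrays read 9.98 and 8.00. Gfi1, a transcriptional repressor that acts in granulocyte differentiation, differed by 2.38 ± 0.53 (adjusted p = 0.0868). The lysozyme genes Lyz1 and Lyz2 differed by 0.26 and 0.41, and the chaperone gene Calr by -0.09. None of these 3 passed the test.

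Among genes of the later secondary and tertiary granules, 16 were measured, of which 2 rose and 0 fell, and the median difference was 0.51. Lcn2, the iron-sequestering lipocalin of secondary granules, read 10.51 and 10.69 with empty vector and 12.84 and 12.62 with shRNA2. Its rise was 2.13 ± 0.18 (adjusted p = 0.00998). Itgb2l, an integrin subunit of neutrophils, rose by 1.88 ± 0.23. For the classic secondary granule genes the first empty-vector array lay well above the second: Camp, the cathelicidin, read 11.26 and 7.49 with empty vector and 12.33 and 12.34 with shRNA2. Its difference of 2.96 ± 1.11 did not pass (adjusted p = 0.247). Ltf, lactoferrin, read 11.23 and 8.96 against 12.13 and 11.89, and Ngp, the neutrophilic granule protein, read 12.56 and 10.90 against 13.31 and 13.36. Neither passed. With either empty-vector array left out, 7 genes of this list passed as higher and 1 as lower.

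**Figure D2:**
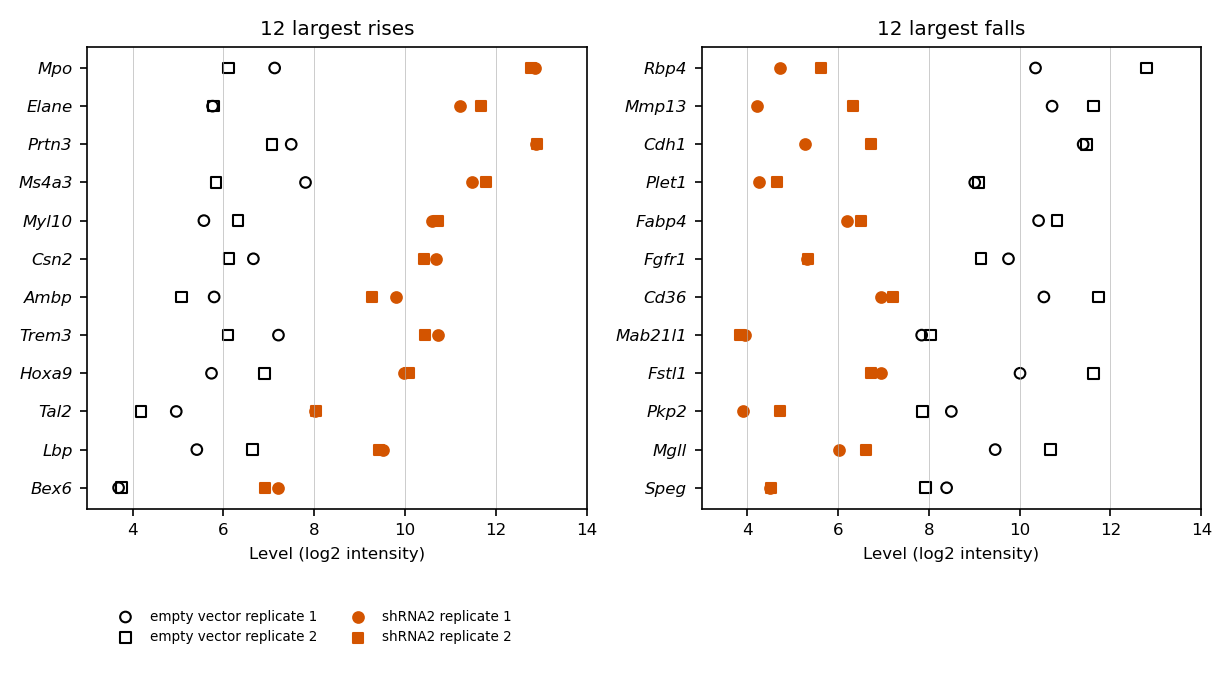
Level (log2 intensity) of the 12 largest rises and 12 largest falls on the 2 empty-vector and 2 shRNA2 arrays. Differences run from 3.34 to 6.19 among the rises and from -6.41 to -3.65 among the falls. The groups overlap in none of the 24 genes, which was a condition of their choice.

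The remaining large rises came from several functions. Csn2, which encodes the milk protein beta-casein and is a known target of STAT5, read 6.66 and 6.13 with empty vector and 10.67 and 10.43 with shRNA2. It rose by 4.16 ± 0.27 (adjusted p = 0.00787), and its second probe set rose by 4.15. Hoxa9, the homeobox factor of blood progenitors and leukaemia, read 5.74 and 6.91 with empty vector and 9.97 and 10.09 with shRNA2. Its rise was 3.71 ± 0.37 (adjusted p = 0.0130), and a second probe set differed by 1.49. Hoxa9 was raised against either control array, by 4.29 against replicate 1 and by 3.12 against replicate 2. Myl10, a myosin light chain, rose by 4.71 ± 0.37. Ambp, the precursor of alpha-1-microglobulin and bikunin, rose by 4.10 ± 0.47. Trem3, a receptor of the TREM family, rose by 3.92 ± 0.50, and Tal2, a basic helix-loop-helix factor, by 3.46 ± 0.27. Lbp, the lipopolysaccharide-binding protein, rose by 3.45 ± 0.44 and Bex6 by 3.34 ± 0.52. Over the 12 largest rises the difference was 2.84 to 6.71 against empty-vector replicate 2 alone and 3.07 to 5.68 against replicate 1 alone.

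Of 11 Hoxa and Hox cofactor genes, 2 rose, Hoxa9 and Hoxa5. Hoxa5 went from 4.91 and 4.99 to 6.44 and 6.24, a rise of 1.39 ± 0.15 (adjusted p = 0.0159). The list's median was 0.14, and Hoxa7, Hoxa10 and the Hox cofactor Meis1 differed by 0.50, 0.06 and 0.14 without passing. Of 24 stem and progenitor genes, 1 rose, the sialomucin gene Cd34, from 9.53 and 9.09 to 10.72 and 10.62 (1.35 ± 0.21, adjusted p = 0.0358). The median over the list was 0.13, or 0.20 without empty-vector replicate 1, and without replicate 2 there were 5 calls higher and 3 lower. Kit, the stem cell factor receptor, was lower by 1.45 ± 0.28 and missed the threshold (adjusted p = 0.0644).

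In the list of cytokine feedback and STAT5 genes, 2 of 19 rose, Csn2 and Il2ra, and 0 fell. The list's median was -0.24, with -0.55 without empty-vector replicate 1 (2 calls higher and 2 lower) and -0.10 without replicate 2 (7 higher and 6 lower). Il2ra, the interleukin 2 receptor alpha chain, rose from 5.14 and 5.18 to 8.12 and 7.28 (2.54 ± 0.32, adjusted p = 0.0219). The other probe set of Il2ra differed by only 0.49. Cish, a feedback inhibitor of cytokine receptors, differed by -0.99 ± 0.36 (adjusted p = 0.226), and Socs2 and the kinase gene Pim1 by 0.05 and -0.67. The Csn2 promoter is printed because Csn2 was the largest rise in this list and because its window holds the palindrome TTCNNNGAA that STAT factors are known to bind, here in capitals. The sequence is the 250 bases before the RefSeq start, read 5′ to 3′ on the strand of the gene (GRCm38.p6, chr5:87699426-87699675, minus strand).
Csn2: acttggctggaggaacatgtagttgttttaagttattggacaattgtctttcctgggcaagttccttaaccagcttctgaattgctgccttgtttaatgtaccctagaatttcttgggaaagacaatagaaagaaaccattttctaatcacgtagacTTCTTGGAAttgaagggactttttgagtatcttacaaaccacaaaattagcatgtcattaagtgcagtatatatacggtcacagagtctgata
The match begins 93 bases before the start. Windows were on hand for 9887 of the 12393 genes, and 7.31% of them held TTCNNNGAA, which reads the same on both strands. It was found in 3 of the 16 windows of the cytokine list and in 9.68% of the windows of genes that rose, and not in those of Il2ra and Cish. A match is a description of letters and not a shown binding site.

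Among genes of mitosis, all the calls were higher with shRNA2. Of 33 measured genes of mitosis, 9 rose and 0 fell, 32 had a positive difference and 23 lay above both controls without overlap. Over all 12393 genes, 0.88% rose and 1.95% fell, 5994 had a positive difference and 21.6% lay above both controls. Kif20a, a kinesin of cytokinesis, read 6.45 and 6.45 with empty vector and 8.32 and 8.45 with shRNA2, a rise of 1.94 ± 0.17 (adjusted p = 0.0107). Aurkb, the kinase of the chromosomal passenger complex, rose by 2.11 ± 0.20, Ccnb2, cyclin B2, by 2.02 ± 0.19, and Cdk1, the kinase that starts mitosis, by 1.44 ± 0.16. The control arrays of these 4 genes differed by no more than 0.24 between themselves. The other 5 that rose were the checkpoint genes Bub1b, Mad2l1 and Ttk and the spindle genes Kif23 and Nusap1. For the list as a whole the 2 control arrays were far apart, 8.62 and 7.70 as averages, with the shRNA2 arrays at 9.21 and 9.27. The list's median difference was 1.08 with both controls, 1.504 without empty-vector replicate 1 and 0.65 without replicate 2. The calls were 30 higher without replicate 1, and 12 higher and 1 lower without replicate 2.

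Genes of DNA replication depended still more on the control array. Of 31 measured, 2 rose and 0 fell. Tk1, the thymidine kinase of S phase, rose by 2.23 ± 0.31, from 7.48 and 6.71 to 9.40 and 9.25, and Mcm6, a subunit of the replicative helicase, rose by 1.19 ± 0.20. The list's median difference was 0.58 with both controls, 1.24 without replicate 1 and 0.03 without replicate 2. Its averages were 8.93 and 7.94 on the empty-vector arrays and 9.20 and 9.05 on the shRNA2 arrays. The part that the RNA quality of the first control array had in this was not tested. Among G1 cyclins and cyclin-dependent kinase inhibitors, 1 of 18 rose and 3 fell. Cdkn2a, the locus of the p16 and p19Arf inhibitors, read 8.18 and 8.39 with empty vector and 5.98 and 6.05 with shRNA2 (-2.27 ± 0.16, adjusted p = 0.00787). Its neighbour on chromosome 4, Cdkn2b, which encodes the p15 inhibitor, fell by 2.45 ± 0.24, from 8.10 and 8.49 to 5.73 and 5.97. Ccnd1, cyclin D1, fell by 2.06 ± 0.19, and its partner kinase gene Cdk4 rose by 0.92 ± 0.15. Among p53 target genes, 1 of 20 fell, Phlda3, a repressor of AKT signalling (-1.76 ± 0.30), and the list's median was -0.50. The G1 list's median was -0.13, or -0.43 without empty-vector replicate 2.

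The lists of ribosome assembly, cholesterol synthesis and glycolysis genes had at most 1 call each. Over all genes, 0.88% rose and 1.95% fell. Of 24 Myc and ribosome assembly genes 1 rose, the spermidine synthase gene Srm (1.08 ± 0.17), and the median was 0.51, or 0.28 without empty-vector replicate 2. Of 18 cholesterol synthesis genes 1 rose, Fdps, the farnesyl diphosphate synthase (1.94 ± 0.24), whose other probe set differed by 0.01. The median there was 0.54, or 0.34 without empty-vector replicate 2. Of 21 glycolysis and hypoxia genes 0 passed in limma, and the median was 0.41. An unadjusted p under 0.05 was found for 10 of them, and for 2209 of all 12393 genes. Without empty-vector replicate 1 there were 7 calls higher and 1 lower in that list. Bnip3, a mitophagy gene, and the glycolytic kinase gene Pgk1 differed by 1.01 and 0.79 (adjusted p = 0.0574 and 0.0667). In the integrated stress response and amino acid list, 5 of 23 fell and 0 rose. Trib3, a pseudokinase induced by ATF4, read 10.15 and 10.03 with empty vector and 7.37 and 7.07 with shRNA2 (-2.87 ± 0.18, adjusted p = 0.00787). The differences were -2.07 ± 0.19 for the related factor gene Atf5, -1.83 ± 0.25 for Vldlr, the very low density lipoprotein receptor, and -1.63 ± 0.23 for the amino acid transporter gene Slc7a5, all past the threshold. The fifth was the transcription factor gene Cebpb (-1.25). The other probe sets of Vldlr differed by -0.30, -1.32 and -0.59.

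The largest falls included genes of retinol and lipid transport, a matrix protease and a cadherin. Rbp4, the plasma carrier of retinol, read 10.35 and 12.80 log2 units with empty vector and 4.71 and 5.62 with shRNA2. Mmp13, the collagenase-3 of the matrix, went from 10.71 and 11.62 to 4.21 and 6.33. Cdh1, E-cadherin, went from 11.40 and 11.47 to 5.28 and 6.73. In each the shRNA2 arrays lay far below both controls, although the 2 shRNA2 arrays themselves differed by up to 2.13. The differences were -6.41 ± 0.90 for Rbp4 (adjusted p = 0.0282), -5.90 ± 0.69 for Mmp13 (adjusted p = 0.0187) and -5.42 ± 0.56 for Cdh1 (adjusted p = 0.0137). Plet1, a surface protein of epithelial progenitors, fell by 4.59 ± 0.18 (adjusted p = 0.00318), but its other probe set differed by -0.12. Fabp4, the fatty acid carrier of fat cells and macrophages, read 10.42 and 10.82 with empty vector and 6.21 and 6.52 with shRNA2, a difference of -4.26 ± 0.28. Fgfr1, a fibroblast growth factor receptor, fell by 4.13 ± 0.25, and its other probe set differed by -1.20. Cd36, the scavenger receptor for oxidized lipoproteins and fatty acids, went from 10.53 and 11.73 to 6.94 and 7.21 and fell by 4.06 ± 0.39. The remaining large falls were Mab21l1 (-4.04), the secreted glycoprotein gene Fstl1 (-3.98), the desmosome gene Pkp2 (-3.86), the lipase gene Mgll (-3.74) and the muscle kinase gene Speg (-3.65). The other 3 probe sets of Speg differed by -0.37, -0.92 and -0.17. Those of Pkp2 differed by -2.02, -0.75 and -0.65, and those of Mgll by -3.54, -2.64 and 0.05. Over the 12 largest falls the difference was -7.63 to -3.41 against empty-vector replicate 2 alone and -5.44 to -3.13 against replicate 1 alone.

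In the list of lipid uptake and lysosome genes, 7 of 21 fell and 0 rose, and all 21 had a negative difference. Over all 12393 genes, 1.95% fell and 6399 had a negative difference. Like the other lists, this list was chosen with earlier results of these data known, so its counts are a description only. The 7 were Rbp4, Mmp13, Fabp4, Cd36, Lpl, Abcg1 and Ctsb. Lpl, lipoprotein lipase, read 12.91 and 13.19 with empty vector and 11.42 and 11.64 with shRNA2 (-1.52 ± 0.20). Abcg1, which exports cholesterol, fell by 1.75 ± 0.28, and Ctsb, the lysosomal protease cathepsin B, fell by 1.12 ± 0.18. Of the 7, Rbp4 and Mmp13 are secreted proteins and not parts of the uptake or lysosome machinery itself. The list's median was -0.88, and it was -1.28 without empty-vector replicate 1, where 14 members passed as lower. Without replicate 2, 10 passed as lower and 1 as higher. Pparg, the fatty-acid-sensing nuclear receptor that is known to drive Fabp4 and Cd36, differed by -2.55 ± 0.45 and stood just outside the threshold (adjusted p = 0.0501).

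In the adhesion and junction list 4 of 15 fell and 0 rose, with a median of -0.30. They were Cdh1, Pkp2, the cadherin gene Cdh17 (-3.64 ± 0.28) and the integrin gene Itgb7 (-1.70 ± 0.20). Cdh17 read 8.90 and 9.22 with empty vector and 5.04 and 5.80 with shRNA2.

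Monocyte and macrophage genes moved in both directions. Of 29 measured, 5 fell and 2 rose, with a median of -0.31. Mrc1, the mannose receptor of tissue macrophages, read 11.49 and 12.39 with empty vector and 9.11 and 9.50 with shRNA2, a difference of -2.64 ± 0.36 (adjusted p = 0.0273). The scavenger receptor genes Marco (-2.34 ± 0.37) and Msr1 (-1.67 ± 0.20) fell, and Cd36 and Lpl are counted here too. The 2 that rose were Fcgr1, the high-affinity IgG receptor (2.67 ± 0.31), and F13a1, the coagulation factor XIII subunit of monocytes (2.15 ± 0.22). F13a1 read 9.31 and 8.95 with empty vector and 11.31 and 11.25 with shRNA2. Csf1r, the receptor that defines the lineage, differed by 0.48 ± 0.19 (adjusted p = 0.260). Without empty-vector replicate 1 the list's median was -0.84, with 2 members higher and 13 lower. Without replicate 2 it was -0.32, with 7 higher and 8 lower.

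Several transcription factors of the myeloid lineages fell. Of 24 measured, 4 fell and 0 rose. The median was -0.84 with both controls, -0.66 without empty-vector replicate 1 and -0.44 without replicate 2. Id2, an inhibitor of basic helix-loop-helix factors, read 12.50 and 12.53 with empty vector and 10.63 and 10.53 with shRNA2, a difference of -1.94 ± 0.14 (adjusted p = 0.00787). Egr2, an immediate early factor of macrophages, went from 10.79 and 10.99 to 8.79 and 8.59, a difference of -2.20 ± 0.20. Cebpb, the C/EBP factor of stress granulopoiesis and macrophages, fell by 1.25 ± 0.16, and Junb, a part of AP-1, fell by 1.23 ± 0.18. The master regulators Spi1 (PU.1) and Cebpa differed by 0.08 ± 0.23 and -0.23 ± 0.30 and did not pass. Klf4 and Egr1 differed by -2.18 and -1.48 and stood close to the threshold (adjusted p = 0.0615 and 0.0644).

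Interferon-stimulated genes were mostly lower with shRNA2. Of 30 measured, 5 fell and 1 rose, 24 had a negative difference, and the median was -0.61. Over all 12393 genes, 1.95% fell, 0.88% rose and 6399 had a negative difference. Ifit1, which binds foreign RNA caps, read 8.999 and 8.00 with empty vector and 5.19 and 4.85 with shRNA2, a difference of -3.48 ± 0.35 (adjusted p = 0.0130). Rsad2, the antiviral enzyme viperin, went from 11.69 and 10.08 to 7.85 and 7.07, a difference of -3.42 ± 0.55 (adjusted p = 0.0387). Oasl2, an oligoadenylate synthetase-like protein, fell by 3.01 ± 0.32. Usp18, which removes ISG15 and dampens the interferon receptor, fell by 2.65 ± 0.37. The immunity-related GTPase gene Igtp fell as well (-1.83 ± 0.25). Ifi47, another GTPase of this family, rose by 1.20 ± 0.21, from 8.88 and 9.37 to 10.28 and 10.37. Irf7, the interferon regulatory factor that amplifies the response, differed by -1.04 ± 0.20 and missed the threshold (adjusted p = 0.0590). The median was -0.80 without empty-vector replicate 1 and -0.57 without replicate 2, where 11 and 12 members passed as lower and 1 and 5 as higher.

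The promoters of 4 of the 5 interferon-stimulated genes that fell were in the RefSeq table and are printed because 3 of them hold the spaced repeat GAAANNGAAA, the core of the element bound by interferon-activated factors. Capitals mark it on either strand, so that TTTCNNTTTC is the same element read on the other strand. Each is the 250 bases before the start on the gene's own strand, from GRCm38.p6: Ifit1 at chr19:34640639-34640888 (plus), Rsad2 at chr12:26456453-26456702 (minus), Igtp at chr11:58199306-58199555 (plus) and Oasl2 at chr5:114896684-114896933 (plus).
Ifit1: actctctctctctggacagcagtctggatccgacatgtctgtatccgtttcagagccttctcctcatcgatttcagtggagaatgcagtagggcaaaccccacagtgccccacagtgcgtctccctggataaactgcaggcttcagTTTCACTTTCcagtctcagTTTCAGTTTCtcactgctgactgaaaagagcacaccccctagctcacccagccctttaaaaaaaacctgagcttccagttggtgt
Rsad2: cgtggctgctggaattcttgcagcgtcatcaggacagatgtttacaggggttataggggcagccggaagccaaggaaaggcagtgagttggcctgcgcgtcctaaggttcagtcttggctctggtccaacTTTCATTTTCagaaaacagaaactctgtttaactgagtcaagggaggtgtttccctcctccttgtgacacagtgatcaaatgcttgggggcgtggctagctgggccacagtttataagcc
Igtp: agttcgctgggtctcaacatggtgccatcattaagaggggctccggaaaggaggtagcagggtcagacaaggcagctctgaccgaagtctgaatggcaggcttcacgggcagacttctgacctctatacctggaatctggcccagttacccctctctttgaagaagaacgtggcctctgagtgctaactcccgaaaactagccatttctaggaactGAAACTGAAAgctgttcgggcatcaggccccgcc
Oasl2: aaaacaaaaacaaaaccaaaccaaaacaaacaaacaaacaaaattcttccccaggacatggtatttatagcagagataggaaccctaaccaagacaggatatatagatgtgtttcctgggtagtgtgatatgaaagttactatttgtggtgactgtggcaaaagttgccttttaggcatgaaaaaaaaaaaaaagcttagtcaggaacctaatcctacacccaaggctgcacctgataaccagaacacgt
Ifit1 holds 2 matches, beginning 104 and 85 bases before the start. Rsad2 holds 1 at 120 bases and Igtp 1 at 34 bases, and the Oasl2 window holds none. GAAANNGAAA occurred on either strand in 3.35% of the 9887 genes with a window, in 10 of the 23 interferon-stimulated genes with a window (43.5%), in 6.84% of all falling genes with one and in 3.23% of all rising genes with one.

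Chemokines and inflammatory genes also had more falls than rises, 4 against 0 of 24 measured, with a median of -0.71. Ccl17, a ligand of CCR4 made by dendritic cells, read 8.53 and 9.98 with empty vector and 5.90 and 5.84 with shRNA2, a difference of -3.39 ± 0.47 (adjusted p = 0.0273). The monocyte attractant gene Ccl7 (-2.29 ± 0.25), Ccl4 (-1.36 ± 0.18) and Ccl6 (-0.94 ± 0.16) fell as well. The arrays did not overlap for any of these. Without empty-vector replicate 1, 10 members passed as lower, and without replicate 2, 8 did.

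**Figure D3:**
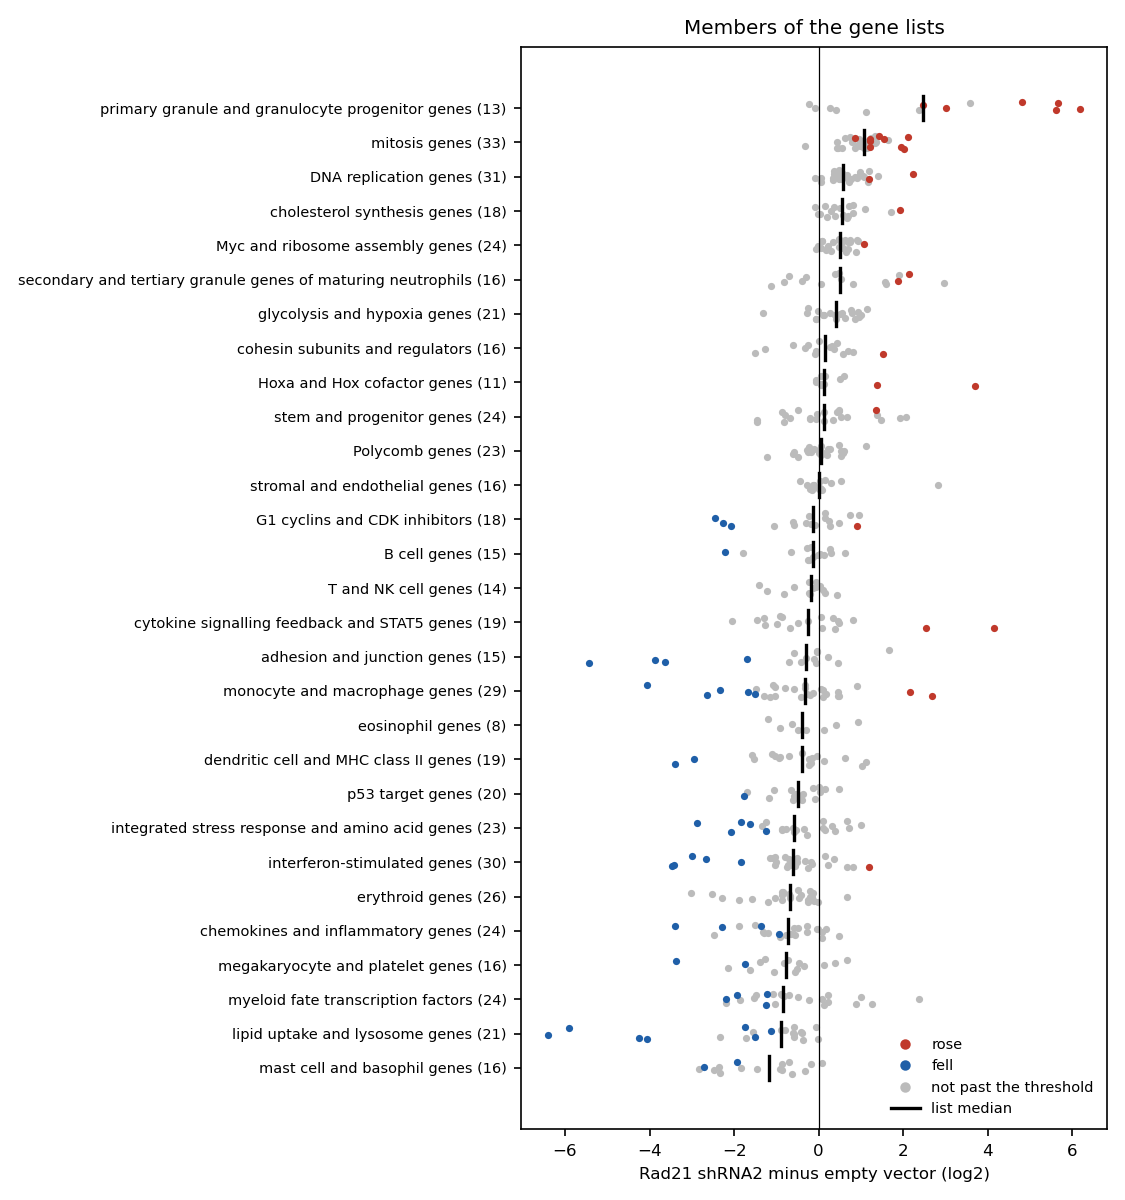
Difference between Rad21 shRNA2 and empty vector (log2) for every measured member of each gene list, 1 point per gene, with the list's median as a bar and genes past the threshold in colour. Primary granule and mitosis genes lie furthest to the right by their medians, 2.48 and 1.08, and mast cell genes furthest to the left, at -1.18, all against the mean of both control arrays.

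Markers of the other colony types were measured as well. Mast cell and basophil genes had a median of -1.18, or -1.34 and -1.24 against a single control array. Of 16 measured, 2 fell and 0 rose, and 11 lay below both controls without overlap. Over all 12393 genes, 1.95% fell and 22.6% lay below both controls in this way. Fcer1a, the alpha chain of the IgE receptor, read 12.21 and 13.12 with empty vector and 9.93 and 9.96 with shRNA2, a difference of -2.72 ± 0.30 (adjusted p = 0.0159). Mcpt2, a mast cell protease gene, fell by 1.93 ± 0.28. Cpa3, the mast cell carboxypeptidase, read 13.29 and 13.68 against 13.51 and 13.62 and overlapped. Hdc, which makes histamine, differed by -0.17 and overlapped too. Among the markers of this lineage, calls and overlaps thus stood side by side.

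Megakaryocyte and platelet genes had a median of -0.77, with 2 of 16 lower and 0 higher. Clec1b, the podoplanin receptor of platelets, read 10.29 and 9.42 with empty vector and 6.53 and 6.44 with shRNA2 (-3.37 ± 0.43, adjusted p = 0.0232). Selp, P-selectin, fell by 1.73 ± 0.28, and Pf4, platelet factor 4, differed by -1.06 ± 0.27 (adjusted p = 0.114). Dendritic cell and MHC class II genes had a median of -0.39, with 2 of 19 lower, Ccl17 and the integrin gene Itgax (-2.96 ± 0.52). Of 15 B cell genes 1 fell, Blnk, an adaptor of the B cell receptor that myeloid cells also express. It went from 8.10 and 8.07 to 5.74 and 6.02, a difference of -2.21 ± 0.16, and the list's median was -0.14. That median turned to 0.10 without empty-vector replicate 1.

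In 4 lists of other cell types no gene passed in limma. Over all 12393 genes, 2209 had an unadjusted p under 0.05 in that fit. Erythroid genes had a median of -0.68, with 7 of 26 at an unadjusted p under 0.05. That median was -0.09 without empty-vector replicate 1 and -1.26 without replicate 2, since erythroid genes averaged 8.79 and 7.45 on the control arrays, against 7.44 and 7.18 with shRNA2. Rhag, a membrane protein of red cells, read 9.38 and 6.06 with empty vector. Eosinophil genes had a median of -0.38 (-0.02 without replicate 1), and 3 of the 8 had an unadjusted p under 0.05. The median of T and NK cell genes was -0.17 (-0.05 without replicate 1), and 5 of the 14 had an unadjusted p under 0.05. For stromal and endothelial genes these were 0.02 and 1 of 16, and the median was -0.07 without replicate 2. The stromal gene at that level was Pdgfrb, a platelet-derived growth factor receptor (2.83 ± 0.53, adjusted p = 0.0569). Its other probe set differed by 0.42.

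**Figure D4:**
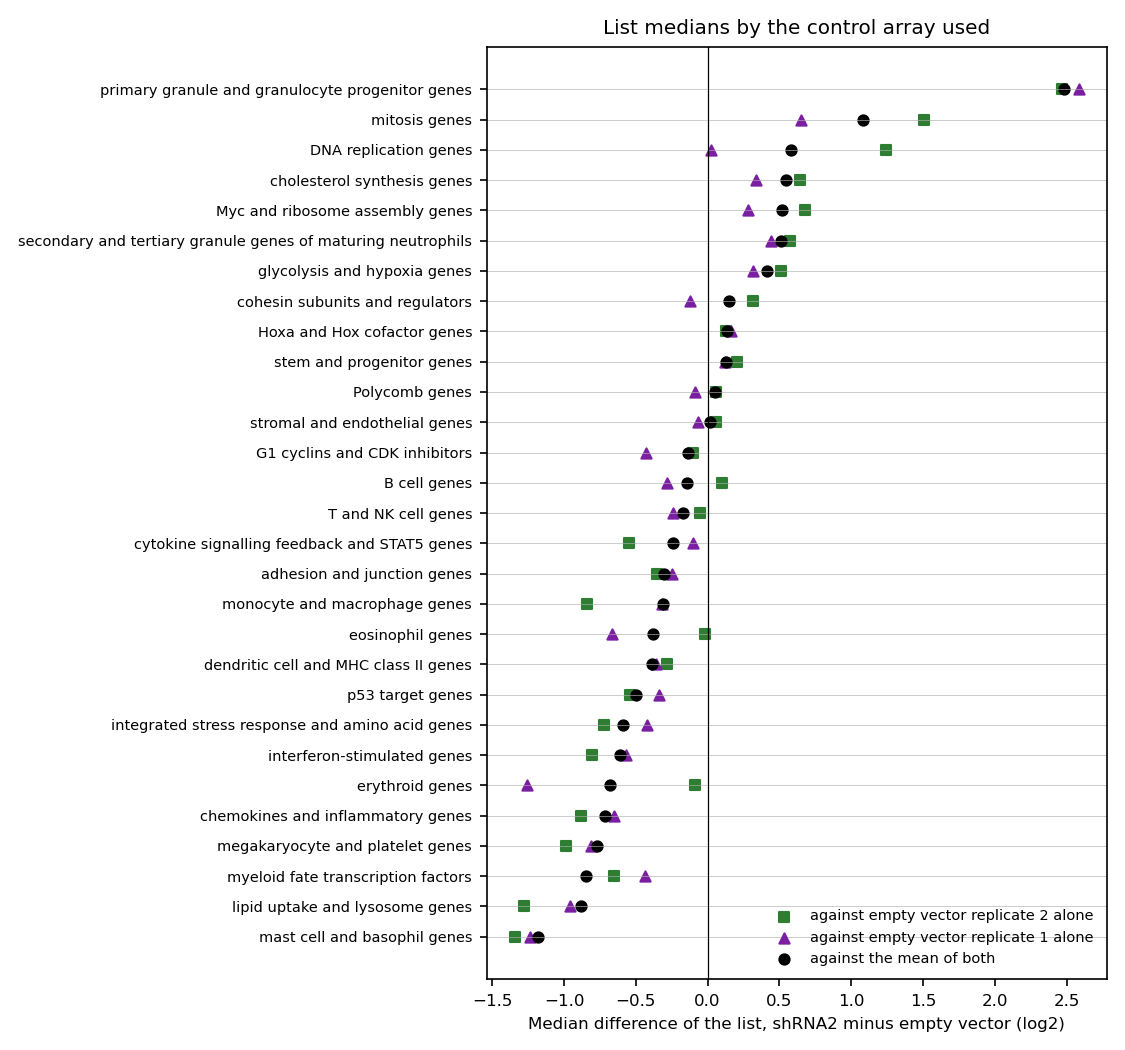
Median difference (log2) of each gene list between Rad21 shRNA2 and empty vector, against both control arrays, without empty-vector replicate 1 and without replicate 2. Primary granule genes stay between 2.47 and 2.58, while DNA replication genes run from 0.03 to 1.24 and erythroid genes from -1.26 to -0.09.

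Among the genes of the cohesin complex and its regulators, 1 of 16 rose, and 0 passed as lower. Stag1, the subunit that can stand in for Stag2, read 8.06 and 8.41 with empty vector and 9.87 and 9.65 with shRNA2, a rise of 1.52 ± 0.23 (adjusted p = 0.0349). Its other 3 probe sets differed by 2.23, 1.20 and 1.14. The ring subunits Smc1a and Smc3 differed by 0.27 ± 0.18 and 0.59 ± 0.23, Stag2 by 0.80 ± 0.28, the loader gene Nipbl by 0.02 ± 0.20 and Ctcf by 0.33 ± 0.20. None of these passed. Over the list the median was 0.15. It was 0.32 without empty-vector replicate 1, with 4 calls higher and 0 lower, and turned to -0.12 without replicate 2, with 2 higher and 4 lower. Of 23 Polycomb genes 0 passed in limma. In that list 4 had an unadjusted p under 0.05, a level that 2209 of all 12393 genes reached. The median was 0.05. Without empty-vector replicate 2 it was -0.09, with 3 higher and 4 lower.

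The threshold itself fell among moderate changes. Just inside it stood Bmp7 (-1.005, adjusted p = 0.0496) and Decr1 (-1.12, adjusted p = 0.0498). The other probe set of Decr1 differed by -0.11. Just outside stood Pparg (-2.55) and Traf5 (-1.05), both at an adjusted p of 0.0501.

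Rad21 shRNA1 gave fewer calls against the same control arrays, 29 genes (0.234%), with 12 higher and 17 lower. Because both hairpins were set against the same 2 control arrays, their differences from control are given side by side only. For the primary granule genes Mpo, Elane and Prtn3 the shRNA1 differences were 4.49, 4.29 and 4.24, where shRNA2 gave 6.19, 5.67 and 5.62. Csn2 was the reverse, 5.83 with shRNA1 and 4.16 with shRNA2. Cdkn2a differed by -2.43 and -2.27, Trib3 by -2.58 and -2.87, and Lcn2 by 2.07 and 2.13. For Fabp4 the values were -0.92 and -4.26, for Fstl1 -1.01 and -3.98, and for Msr1 0.01 and -1.67. Over whole lists, the medians for primary granule genes were 1.78 with shRNA1 and 2.48 with shRNA2, for mitosis 0.52 and 1.08, for mast cell and basophil genes -1.23 and -1.18, for lipid uptake and lysosome -0.21 and -0.88, and for monocyte and macrophage 0.12 and -0.31.

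The direct comparison of the 2 hairpins does not use the control arrays, apart from their share in the estimate of spread. In the fit of all 6 arrays 0 genes (0%) passed, with 605 at an unadjusted p under 0.05 and a smallest adjusted p of 0.204. When only the 4 shRNA arrays were fitted, so that the widely spaced controls no longer entered the spread, 44 genes passed and 1554 had an unadjusted p under 0.05. All 44 were lower with shRNA2 and 0 were higher. These calls need a fit in which the spread of the control arrays does not enter, as it also does not when either control array is left out (44 in both cases). Of these, 26 had also fallen against the empty vector. Car4, a membrane carbonic anhydrase, read 10.13 and 10.62 with shRNA1 and 6.58 and 6.21 with shRNA2, a difference of -3.98 ± 0.22 in that fit (adjusted p = 0.0259). Qpct, glutaminyl cyclase, differed by -2.75 ± 0.11 (adjusted p = 0.0103), and Fabp4 by -3.34 ± 0.24 (adjusted p = 0.0363). Cd36 differed by -2.24 ± 0.15, Lpl by -1.65 ± 0.16 and Msr1 by -1.68 ± 0.16, so these scavenger and lipid genes were lower with shRNA2 than with shRNA1 in this fit. Irf8, the interferon regulatory factor of monocyte and dendritic cell fate, differed by -1.51 ± 0.12. It read 7.37 and 8.04 with empty vector, 8.44 and 8.55 with shRNA1 and 7.05 and 6.93 with shRNA2. The cytokine gene Il1b and the neutrophil collagenase gene Mmp8 differed between the hairpins by -1.50 ± 0.14 and -1.73 ± 0.15. Their shRNA1 minus empty vector differences were 0.92 and 1.79, and those of shRNA2 were -0.58 and 0.06. Among the genes higher with shRNA2 than with shRNA1 by the smallest p in the fit of 6 arrays, Elane differed by 1.38 ± 0.25 (adjusted p = 0.319) and Nhsl1 by 0.99 ± 0.17 (adjusted p = 0.320).

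**Figure D5:**
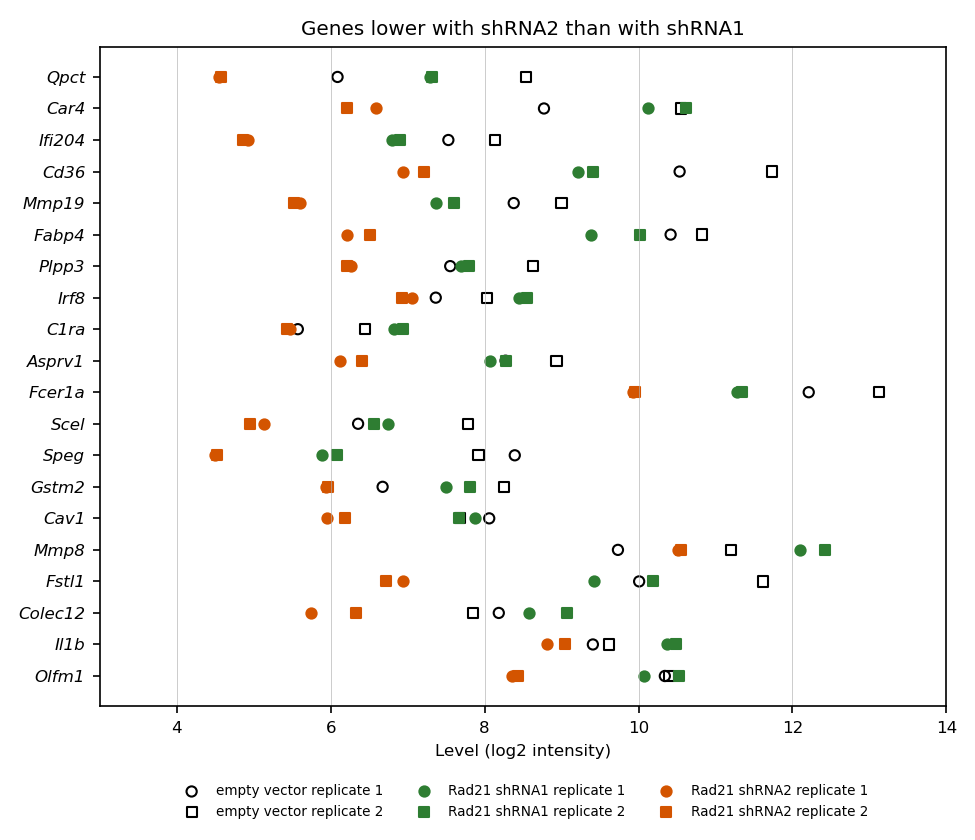
Level (log2 intensity) on all 6 arrays of the 20 genes with the smallest p between Rad21 shRNA2 and Rad21 shRNA1 in the fit of the 4 shRNA arrays. Both shRNA2 arrays lie below both shRNA1 arrays in each gene, while the empty-vector arrays lie above, between or below them.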

How the data were processed

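RNA of 6 samples was hybridized to Affymetrix mouse arrays. The authors deposited 1 linear intensity per probe set and array. The submitters' processing notes name RMA. RMA normalizes the arrays to each other, so a change in total RNA is not visible, and differences of dim probe sets come out too small. The intensities run from 4.96 to 20615, with array medians from 100.2 to 104.9, and hold no detection calls or read depth. The number of arrays limits the precision.

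Groups came from the sample titles. Of 22690 probe sets, 20393 had 1 gene in the platform annotation, 691 several and 1606 none. The 64 control sets stayed out, which left 20380 sets for 12393 genes. Each gene was represented by the set with the highest mean over 6 arrays. Symbols were checked through Entrez numbers in RefSeq (GRCm38.p6), where 20351 of the sets matched and 0 symbols changed. RefSeq promoter windows of 250 bases matched 9887 genes, and none from chromosome 18 was used.

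Intensities were turned to log2 and fitted with limma 3.58.1 (R 4.3.3; lmFit and eBayes) as 3 groups of 2 arrays, with 3 residual and 2.91 prior degrees of freedom. Tests were two-sided, with Benjamini-Hochberg adjustment over all 12393 genes and a threshold of 0.05. Errors are standard errors of this fit unless another fit is named. "Rose" and "fell" are used for genes past the threshold. The procedure was also run on simulated data with the same spread for every gene and array. That setting lacks the wider spread of the empty-vector arrays, so it cannot show how the test behaves with them. An exact permutation test of 2 against 2 arrays cannot go below 0.333.

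The comparison and the 29 gene lists were chosen with earlier results of these data known, so lists are given as counts and medians without a set test. The genes selected by rule were Rad21, Hoxa9 and the 12 largest rises and falls past the threshold without overlap between shRNA2 and empty-vector arrays. To these were added up to 4 called members of each list (smallest adjusted p first, otherwise the 2 with the smallest p). For the 2 hairpins 5 genes in each direction by smallest p were added, and the 2 genes on each side of the threshold. Not all of the selected genes are described. Other genes are named where their role in a list calls for it, after their values were seen, as are those picked from the fit of the 4 shRNA arrays. Alternatives were the arrays fitted, a replicate block, 2 filters on dim genes, the mean of a gene's probe sets, 2 normalizations, 2 variance priors and each array left out. The hairpin sequences and their target sites were not used here.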

Additional observations from a re-analysis of the deposited data

How the results depend on the processing

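The count of 351 genes for Rad21 shRNA2 against empty vector was 120 when only the arrays of the 2 groups were fitted and 180 without the dimmer 50% of genes, of which 116 and 180 were among the 351. Leaving out 1 array at a time gave 0 to 2941 genes. The share of calls that were higher was 31.1%, and 52.8% without empty-vector replicate 2. With quantile normalization, array centring, an intensity trend, robust settings, the mean of probe sets or the dimmest 25% left out the count was 322 to 385, of which 285 to 343 were among the 351. Between the hairpins the count of 0 became 44 in the fit of their 4 arrays, and 0 to 44 with 1 array left out. The difference in Rad21 was -1.84 to -1.19 with 1 array left out. Replicate numbers in the titles run alike over the groups, and the deviations of same-numbered arrays correlated at 0.148 between empty vector and shRNA2, 0.199 between empty vector and shRNA1 and 0.578 between the hairpins. The poly-A controls also read higher on replicate 1 than on replicate 2 in every group. They averaged 10.58 and 7.63 with empty vector, 8.72 and 7.46 with shRNA1 and 8.43 and 7.19 with shRNA2. With 2 numbers neither observation establishes pairs, and a shared replicate batch was not tested. With the replicate number as a block 449 genes passed, 317 of them among the 351, and Rad21, at -1.51, passed with an adjusted p of 0.0166. Of the 95 genes selected by rule, described here or not, none changed sign in the settings that kept it. Without the dimmer 50% of genes 66 were kept, and without the dimmest 25% 90 were. Without shRNA2 replicate 1 or 2, 75 and 77 of them lost the call they had, which left 2 and 0 calls, and 35 lost it in the fit of 4 arrays. Of 435 list medians under these settings, 47 moved beyond the spread of the arrays. The causes were not tested. Fits with fewer arrays have fewer residual degrees of freedom, both where calls increased and where they decreased.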

Other observations

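Of the 351 genes that passed the threshold, 279 were in none of the 29 lists. Those named here were chosen after their values were seen. Among the rises, Plac8, a small cysteine-rich protein of myeloid progenitors, read 9.32 and 9.62 log2 units with empty vector and 12.71 and 12.78 with shRNA2 (3.28 ± 0.26, adjusted p = 0.00787). Gpr84, a receptor for medium-chain fatty acids, rose by 3.01 ± 0.21. Dnmt3l, a cofactor of DNA methyltransferases, rose by 1.29 ± 0.16.

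Several ligand genes were among the falls. Csf1, the growth factor of macrophages, read 10.59 and 10.92 with empty vector and 8.47 and 8.06 with shRNA2 (-2.49 ± 0.22, adjusted p = 0.0107). The epidermal growth factor receptor ligand genes Tgfa (-3.18 ± 0.31) and Hbegf (-2.83 ± 0.24) fell, and Pdgfa (-2.29 ± 0.17) and Pdgfc (-2.50 ± 0.35), ligands of platelet-derived growth factor receptors, fell too. Pdgfb, a further ligand of that family, differed by -0.35 and did not pass. Il6st, the shared receptor chain of the interleukin 6 family, fell by 3.06 ± 0.37. The metalloproteinase inhibitor gene Timp2 (-3.05 ± 0.23), the metalloproteinase gene Mmp19 (-3.12 ± 0.24) and the collagen gene Col18a1 (-3.17 ± 0.22) fell, while the collagen genes Col1a1 and Col3a1 (-0.15 and 0.04) and the metalloproteinase genes Mmp8 and Mmp9 (0.06 and -0.70) did not pass. Mertk, a receptor with which macrophages take up dying cells, went from 8.28 and 9.76 to 5.55 and 5.89 and fell by 3.30 ± 0.48. Notch1 (-1.12 ± 0.17) and its target gene Hes1 (-1.25 ± 0.20) fell.

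Measured genes next to each other along a chromosome in RefSeq formed 12344 pairs, between whose genes unmeasured ones may lie. In 11 pairs both genes were past the threshold, 7 in the same direction and 4 in opposite directions. With 2.83% of all genes past it, some such pairs arise at random, and whether 11 exceeds that was not tested. In the pair of Cep55 and Rbp4 on chromosome 19, Cep55, a gene of the last step of cell division, rose by 1.81 while Rbp4 fell by 6.41. Tgm2 and Lbp on chromosome 2 differed by -1.68 and 3.45. Naip5 and Naip6 on chromosome 13, paralogues whose probes may not tell them apart, differed by -1.22 and -1.30.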
